A study of Mus musculus with 23 samples.

Results

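The comparison was DCS against vehicle in mouse brain, pooled over 2 genotypes. All 11 DCS libraries were set against all 12 vehicle libraries, 23 of 23 in the series, with genotype as a covariate, and 17256 of 18848 genes with a mean value of at least 10 normalised reads were tested. The mice were male C57BL/6J at postnatal day 17, and carried the Grin2b C456Y mutation on 1 allele (heterozygous, HT) or on none (wild type, WT). The DCS arm was made up of 5 WT and 6 HT libraries and the vehicle arm of 6 WT and 6 HT, so that each arm mixed both genotypes. The labels give brain without a region and do not say whether each library came from its own mouse. The p-values therefore measure the spread between these libraries, which may be technical. The sources used here give no dose, route or time of treatment. The mutation changes 1 amino acid, so the level of Grin2b does not check the genotype labels.

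NMDA receptors are glutamate-gated cation channels made of GluN1 subunits (Grin1) with GluN2 (Grin2a to Grin2d) or GluN3 subunits (Grin3a, Grin3b). Channels with GluN2 open when glutamate is bound to GluN2 and a co-agonist, glycine or D-serine, to GluN1. The labels write only DCS, which commonly stands for D-cycloserine, known to act as a partial agonist where these co-agonists bind. Calcium entering through the open channel is known to drive calcium-dependent kinases and the transcription of early genes such as Fos and Arc. Cycloserine is also known to react with pyridoxal phosphate (PLP), the cofactor of many amino acid enzymes.

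Deposited totals were 32.3 to 33.5 M normalised reads per library, and the estimated read depth was 25.6 to 37.5 M reads. Genes of synaptic vesicles had a mean of 13.59 to 13.76 on the log2 scale over all libraries, so the neuronal genes that define brain tissue were abundant in each. Cerebellar genes (10.90 to 11.32) and olfactory bulb genes (9.36 to 9.61) were also present throughout. Within groups, 4 libraries lay far out on the first 4 principal components of the residuals: HT DCS replicate 5, HT vehicle replicate 6, WT DCS replicate 2 and WT vehicle replicate 2. The libraries also separated by replicate number, which was not part of the comparison: 1440 genes passed an adjusted p of 0.05 between numbers 4 to 6 and numbers 1 to 3 (limma, 635 higher and 805 lower). What the numbers stand for is not given, and both treatments occur on either side, so results are also given for numbers 1 to 3 and 4 to 6.

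No gene passed the test between DCS and vehicle (limma on log2(value + 1), Benjamini-Hochberg adjusted p under 0.05, two-sided; 0 of 17256 genes, 0%). The smallest adjusted p was 0.78. At an unadjusted p under 0.05 there were 553 genes, 3.2% of those tested, with 270 higher under DCS (1.56%) and 283 lower (1.64%). Without the 4 libraries that lay far out, again 0 genes passed and 672 had an unadjusted p under 0.05. In no gene did all DCS libraries lie above or below all vehicle libraries (0 of 17256, 0%, in each direction). The differences were small across the transcriptome: from the 5th to the 95th percentile they ran from -0.14 to 0.15 on the log2 scale, their median was -0.0011, and 8456 genes (49%) had a positive one.

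The width of the intervals says how large a shared response these libraries could hide. For 13560 genes (78.6%) the 95% interval of the DCS difference lay wholly within a 1.25-fold change in either direction, for 16262 (94.2%) within 1.5-fold, and for 17068 (98.9%) within 2-fold. The median interval reached 0.06 to either side of the estimate for genes with a mean above 1000 normalised reads, 0.10 for means of 200 to 1000, 0.19 for 50 to 200 and 0.35 for 10 to 50. Precision was thus lowest for weakly expressed genes. A log2 difference over 0.5 was seen for 110 genes, of which 39 had an unadjusted p under 0.05.

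The same contrast was then taken within each genotype. In WT, 0 of 17256 genes passed (0%; smallest adjusted p = 0.888, limma) and 497 had an unadjusted p under 0.05 (2.88%). In HT, 0 passed (0%; smallest adjusted p = 0.222) and 828 had an unadjusted p under 0.05 (4.8%). The difference between the genotypes in the response to DCS, tested as an interaction, was called for 0 genes (0%; smallest adjusted p = 0.984), with 756 at an unadjusted p under 0.05 (4.38%). The HT contrast had 1 call, Ehd1, an ATPase of endosomal recycling, when HT DCS replicate 4 was left out (log2 difference -0.36, limma adjusted p = 0.0164) or when HT vehicle replicate 1 was (-0.35, adjusted p = 0.0479).

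The WT and HT contrasts share no library, so their gene-by-gene differences could be compared. Across the 17256 genes, which are not independent of one another, Pearson's r was -0.04 and Spearman's rho -0.06. The sign was the same in both genotypes for 8067 genes (46.7%). Among the 497 genes at an unadjusted p under 0.05 in WT, 229 (46.1%) had the same sign in HT, and among the 828 of the HT contrast, 362 (43.7%) had the same sign in WT. Only 34 genes had an unadjusted p under 0.05 in both, 14 with the same sign and 20 with opposite signs. Those that matched in sign include Apaf1, Cdhr1, Cth, Irak2 and Irf7, described next. Those with opposite signs include Folr1, a folate receptor of the choroid plexus, at 0.47 in WT and -0.41 in HT, and Sike1, a suppressor of an innate immune kinase, at -0.29 and 0.26. Both patterns were chosen by their p, so the sizes are a description.

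**Figure D1:**
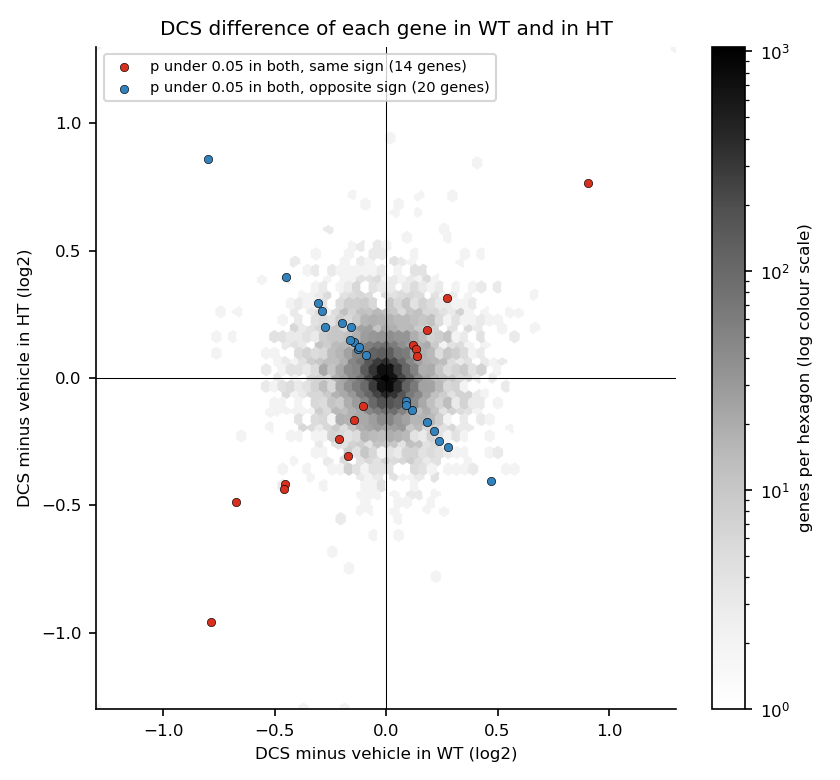
The log2 difference of DCS from vehicle in WT (x axis) and in HT (y axis) for all 17256 tested genes, with shade for the number of genes, red points for the 14 genes at an unadjusted p under 0.05 in both genotypes with the same sign and blue points for the 20 with opposite signs. The cloud is round about the origin, without a diagonal trend (r = -0.04); 46 genes beyond 1.3 in either direction are drawn at the edge.

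Replicate numbers were compared in the same way. The pooled contrast had 0 calls within numbers 1 to 3 (764 genes at an unadjusted p under 0.05, 4.43%) and 0 within numbers 4 to 6 (1292 genes, 7.49%). The sign was shared for 7630 of 17256 genes (44.2%, r = -0.04, rho = -0.11). Among the 764 genes at an unadjusted p under 0.05 in numbers 1 to 3, 258 (33.8%) had the same sign in 4 to 6. Among the 1292 of numbers 4 to 6, 462 (35.8%) had the same sign in 1 to 3. Of 64 genes at an unadjusted p under 0.05 in both, 16 (25%) had the same sign. All these shares were lower than those between the genotypes. Treatment held 3.83% of a gene's variance on average, genotype 5.40% and the split of replicate numbers 10.6%, where 1 of 22 degrees of freedom is 4.55%. On the first 5 principal components of all libraries, treatment accounted for at most 4.28% of the scores' variance, while the split of numbers accounted for 23.7% of the first and 52.1% of the second.

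The genes with the smallest p are given as a description of where the arms lay furthest apart; none passed the test. Among those higher under DCS, Apaf1 had the smallest p. It encodes the scaffold of the apoptosome, which activates caspase-9, and lies at chr10:90989311-91082770 (GRCm38, minus strand). Its lowest, median and highest values were 478, 587 and 794 normalised reads under DCS and 426, 482 and 535 under vehicle. Every DCS library lay above the vehicle mean of its own genotype (11 of 11), 8 lay above all vehicle libraries, and the other 3 overlapped them. The log2 difference was 0.30 ± 0.07 (SE; 1.23-fold; limma adjusted p = 0.945), at 0.27 in WT and 0.32 in HT and at 0.36 in numbers 1 to 3 and 0.23 in 4 to 6.

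Cdhr1, a photoreceptor and olfactory bulb cadherin at chr14:37077857-37098347, ran from 1159 through a median of 1299 to 1574 normalised reads under DCS and from 914 through 1143 to 1324 under vehicle. All 11 DCS libraries were above their own vehicle mean, yet only 4 were above all vehicle libraries. Its difference was 0.19 ± 0.05, with 0.18 in WT and 0.19 in HT. Nqo2, a quinone reductase that uses dihydronicotinamide riboside, had 233, 267 and 279 under DCS against 201, 227 and 258 under vehicle, a difference of 0.19 ± 0.05. Lrrc55, an auxiliary subunit of BK potassium channels, had 1265, 1313 and 1456 against 1148, 1200 and 1355, a difference of 0.11 ± 0.03. The other genes of this group with more than 100 normalised reads differed by 0.08 to 0.29: Zfp81 and Zfp438 (zinc finger genes), Ergic2 (transport between endoplasmic reticulum and Golgi), Actr3 (a subunit of the actin-nucleating Arp2/3 complex), Pola1 (the catalytic subunit of DNA polymerase alpha) and Suco. Of these, Suco differed by 0.03 in WT and 0.27 in HT (interaction, limma unadjusted p = 0.013, adjusted p = 0.984). Atp8b5, a flippase gene known from testis, and Spata21 were near the floor of the table, with medians of 15.5 and 22.7 under DCS and 7.41 and 15.9 under vehicle.

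Irak2 had the smallest p of all genes. It encodes a kinase-like adaptor below Toll-like and interleukin-1 receptors, at chr6:113638467-113695026. Values were 311, 326 and 379 normalised reads under DCS and 301, 384 and 447 under vehicle. All 11 DCS libraries lay below the vehicle mean of their genotype, but WT vehicle replicate 2, the lowest library of the gene, lay below every one of them. The difference was -0.24 ± 0.05 (limma adjusted p = 0.78), with -0.17 in WT and -0.31 in HT. Without WT vehicle replicate 2 it was -0.27 with an adjusted p of 0.0407, the only call of the pooled contrast in any alternative tried, so 1 library decides it.

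Cth, at chr3:157894248-157925077, encodes cystathionine gamma-lyase, a PLP enzyme that makes cysteine from cystathionine. Its values were 50.7, 67.6 and 101 normalised reads under DCS against 76.7, 93.0 and 135 under vehicle. In 8 of 11 DCS libraries it was below all vehicle libraries; WT DCS replicate 4, at 101, lay above most of them. The difference was -0.45 ± 0.10 (0.734-fold, limma adjusted p = 0.9998), with -0.46 in WT, -0.44 in HT, -0.55 in numbers 1 to 3 and -0.35 in 4 to 6. Zfp14, a zinc finger gene, had 255, 286 and 336 against 298, 337 and 401, a difference of -0.23 ± 0.05, and 7 of 11 DCS libraries lay below all vehicle libraries. Tubgcp6, a component of the gamma-tubulin ring complex that nucleates microtubules, had 1522, 1757 and 1824 against 1750, 1895 and 2228, a difference of -0.15 ± 0.04.

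Irf7, which encodes a transcription factor that interferon signalling uses, had 22.4, 39.9 and 50.8 normalised reads under DCS and 35.2, 53.2 and 74.96 under vehicle, a difference of -0.43 ± 0.13 with -0.45 in WT and -0.42 in HT. In 10 of 11 DCS libraries it was below the vehicle mean of its own genotype, and 4 lay below all vehicle libraries. The remaining genes of this group differed by -0.09 to -0.88: Tmem163 (a zinc transporter of synaptic vesicles), Nol4l, Mtus2 (microtubule associated), Tekt2 (a tektin of cilia), Efcc1, Cnga2 (the olfactory cyclic nucleotide-gated channel) and Nrn1l. Nrn1l was unlike the others in its genotypes. Its WT DCS libraries read 2.35, 4.17, 4.96, 7.07 and 7.40, all below the lowest WT vehicle library at 8.02. HT DCS (10.6 to 16.8) and HT vehicle (12.2 to 20.2) overlapped. The difference was -1.21 in WT and -0.14 in HT (interaction, limma unadjusted p = 0.0049, adjusted p = 0.984). Nrn1l was near the floor of the table, and the share of all genes that separate so within WT was not counted. All 24 genes of the 2 groups kept their sign in all alternatives that gave a value, which their choice by p in these same libraries makes likely.

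**Figure D2:**
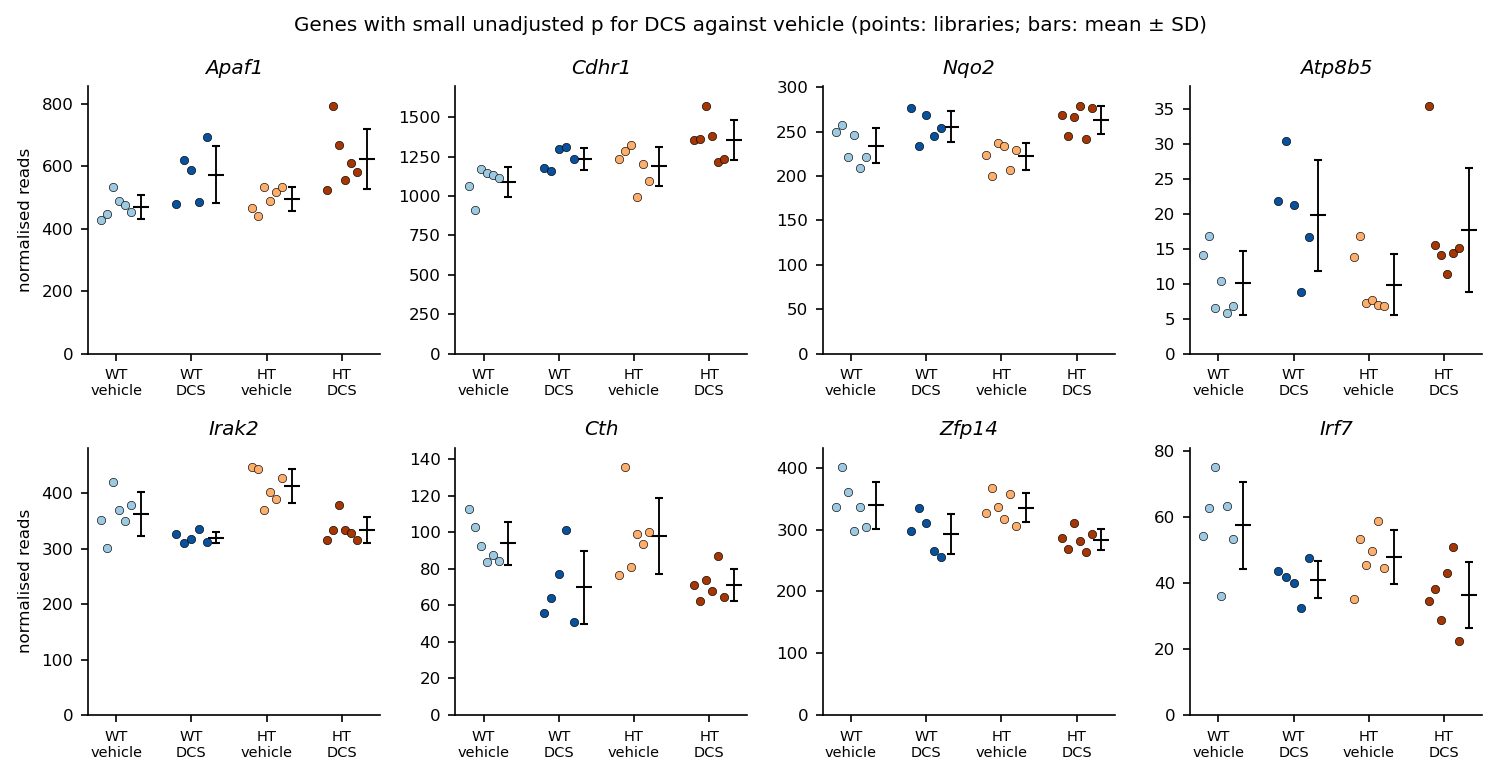
Normalised reads of 8 genes with small unadjusted p in every library, by group, with points for libraries, bars for mean ± SD and axes from 0. In each panel the DCS and vehicle libraries overlap; for Cth, 8 of 11 DCS libraries sit below all vehicle libraries.

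Of the NMDA receptor, no subunit gene passed the test between the arms (0 of 7 called, 0 of 7 at an unadjusted p under 0.05). Grin1, whose product carries the co-agonist site, had 19626, 20620 and 22363 normalised reads under DCS and 20003, 20761 and 22211 under vehicle; the arms overlapped almost wholly. Its difference was 0.00, with a 95% interval from -0.05 to 0.05. Grin2b had 15207, 19371 and 21725 against 14618, 18415 and 19880. The lowest of these belonged to HT vehicle replicate 6 and WT DCS replicate 2, which lay far out. The difference was 0.06 (interval -0.07 to 0.18), 0.06 in WT and 0.05 in HT, and 0.02 without HT vehicle replicate 6. It was -0.08 in numbers 1 to 3 and 0.22 in 4 to 6. Grin2a (0.02, interval -0.06 to 0.10), Grin2c (-0.02, -0.09 to 0.06), Grin2d (0.02, -0.06 to 0.10) and Grin3a (0.05, -0.03 to 0.13) were bounded about as tightly. Grin3b, at a median of 24.8 normalised reads under DCS and 28.1 under vehicle, was not: its difference was -0.20 with an interval from -0.55 to 0.16.

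Genes that make, move or break down the co-agonists gave 0 of 17 at an unadjusted p under 0.05. Srr, the racemase that makes D-serine, had a difference of -0.02 (interval -0.07 to 0.04), and Phgdh, Psat1 and Psph of serine synthesis had -0.03, 0.01 and -0.03. The glycine transporters Slc6a9 and Slc6a5 had -0.03 and -0.23; Slc6a5, a marker of glycinergic neurons of the hindbrain, differed by 0.07 in numbers 1 to 3 and -0.52 in 4 to 6. The serine carriers Slc1a4 and Slc7a10 had 0.02 and 0.00. The glycine cleavage genes Gldc, Amt, Gcsh and Dld lay between 0.02 and 0.04. Dao, the oxidase that degrades D-serine, differed by -0.09 in the pooled contrast, and its genotypes ran in opposite directions: WT DCS libraries held 115 to 152 normalised reads and WT vehicle 94.2 to 137, whereas HT DCS held 84.0 to 134 and HT vehicle 125 to 156. The WT difference was 0.21, that of HT -0.37 (interaction, limma unadjusted p = 0.0027, adjusted p = 0.984).

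**Figure D3:**
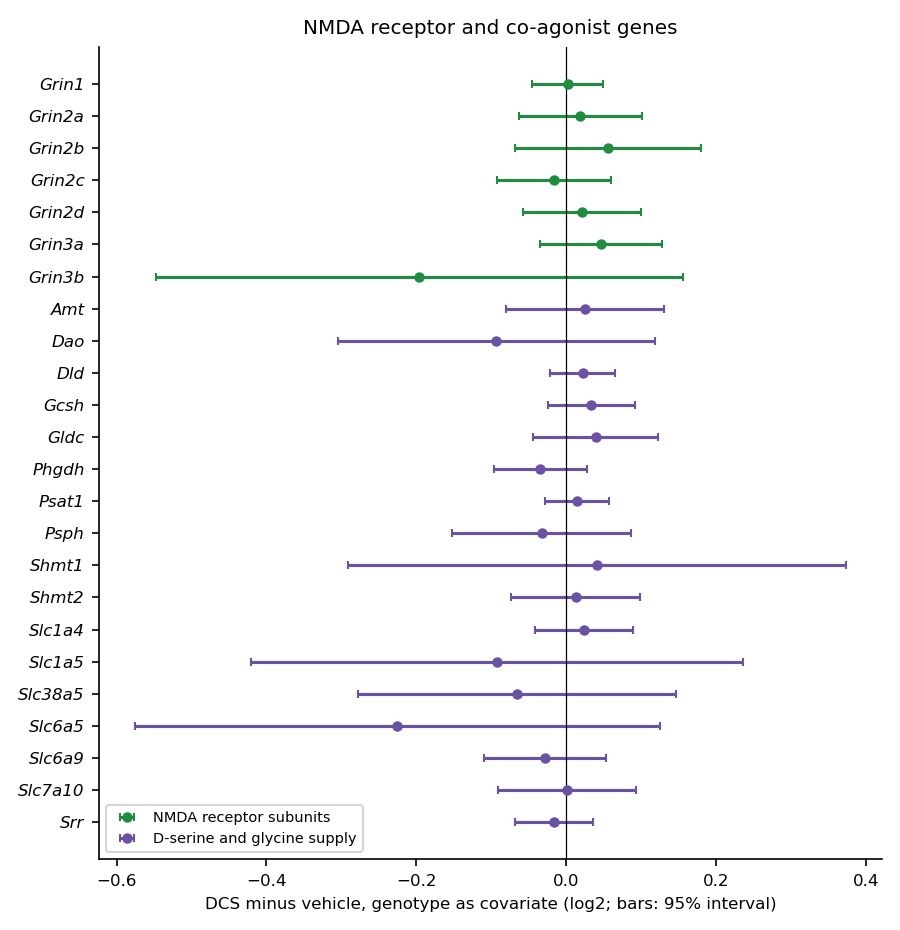
Pooled log2 difference of DCS from vehicle (x axis, bars for the 95% interval) for 7 NMDA receptor subunit genes and 17 genes of D-serine and glycine supply (rows). All 24 intervals include 0. The widest include those of Grin3b, a gene of low level, and of Slc6a5, which ran from 421 to 1366 normalised reads over the libraries.

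Other genes of glutamate synapses lay close to 0. AMPA receptor subunits and their auxiliary proteins had a median difference of 0.0031 over 17 genes with 0 at an unadjusted p under 0.05, and differences from -0.04 (Cnih2) to 0.03 (Gria2). Postsynaptic density scaffolds had a median of 0.0020 over 19 genes, with Shank3 at -0.03 and Sipa1l1 at 0.04. Calcium signalling genes below the receptor had a median of 0.0015 over 28 genes, with Rcan1, the calcineurin regulator, at -0.05 and Camkk1 at -0.06. GABA-A receptor subunits (median 0.01 over 15 genes) and synaptic vesicle genes (-0.0013 over 27) also held 0 genes at an unadjusted p under 0.05. For comparison, the median half-width of the 95% interval of a gene was 0.06 in each of the first 3 lists. In the list of enzymes that use or supply PLP, 27 of 29 members were tested and 1, Cth, had an unadjusted p under 0.05; the rest lay between -0.26 (Gadl1) and 0.07 (Bcat2), and the list's median was -0.0084.

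Early genes that neurons switch on with activity were lower under DCS in 28 of 36, with a median of -0.09, where 49% of all genes were higher and the median of all was -0.0011. None was called, and 0 of 36 had an unadjusted p under 0.05. Jun, an AP-1 transcription factor, had 1587, 1892 and 2133 normalised reads under DCS and 1769, 1969 and 2214 under vehicle (-0.08 ± 0.04), and Atf3 had 8.52, 19.1 and 33.5 against 15.04, 23.3 and 30.5 (-0.34 ± 0.19). Egr4 differed by -0.17 ± 0.11 and Csrnp1 by -0.16 ± 0.11. The best known members, picked by name outside the rule, varied more: Fos had a mean of 1117 against 1339 (-0.24 ± 0.28) and Arc 3636 against 4314 (-0.25 ± 0.27). The list's mean per library ran from 9.16 to 9.83 on the log2 scale under DCS and from 9.10 to 9.89 under vehicle, so the arms covered the same range, and the lowest library of all was WT vehicle replicate 4. The median was -0.0093 in WT and -0.15 in HT, -0.08 in numbers 1 to 3 and -0.12 in 4 to 6, and -0.06 without HT DCS replicate 2. Late plasticity genes had a median of 0.0047 over 25 genes; Crh, a stress peptide, was the 1 with an unadjusted p under 0.05 (-0.17 ± 0.08).

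Of the genes of interferon response and antigen presentation, 21 of 23 were lower under DCS, with a median of -0.10, -0.13 in WT, -0.08 in HT, -0.17 in numbers 1 to 3 and -0.05 in 4 to 6. With only genes of a mean of at least 50 normalised reads, the median was -0.04. Of the 23, 5 had an unadjusted p under 0.05 (3.2% of all tested genes did) and 0 were called. They include Irf7, Stat2, a signal transducer of interferon receptors (-0.10 ± 0.04), Oas2, a sensor of double-stranded RNA (-0.58 ± 0.26), and, in the other direction, Mx1, an antiviral GTPase (0.75 ± 0.26). Stat2 had 1024, 1146 and 1312 normalised reads under DCS and 1056, 1259 and 1345 under vehicle. Oas2 and Mx1 were near the floor of the table, with medians of 8.41 and 11.7 under DCS and 12.8 and 9.03 under vehicle. The list's mean per library was 6.35 to 6.85 under DCS and 6.51 to 7.18 under vehicle, and 9 of 11 DCS libraries were below the vehicle mean of their genotype. WT vehicle replicate 3 was the highest and HT DCS replicate 6 the lowest. This direction in WT was already known when the list was chosen, so its count is no independent evidence. Endothelial genes lay on the same side (mean per library 9.23 to 9.43 under DCS and 9.28 to 9.48 under vehicle), and microglia genes had a median of -0.0050 over 20 genes (7.67 to 8.64 and 7.70 to 8.52). The microglia median depended on single libraries: it was -0.06 without WT DCS replicate 2, 0.04 without WT DCS replicate 4, -0.08 in numbers 1 to 3 and 0.08 in 4 to 6. The part of these cells in the interferon result was not tested.

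Interferon genes share a promoter element, and those of this list are shown by it since 21 of 23 lay on the same side. The interferon-stimulated response element was searched as GAAA, any 2 bases and GAAA again, on both strands with overlapping matches counted, in the 250 bases before the start of each gene (RefSeq, GRCm38.p6). It was found in 8 of the 19 list genes with a promoter in the table (42.1%), and in 936 of all 27025 genes (3.46%). The list was made of interferon genes, which share the element. The higher share follows from that choice and is no evidence on DCS. The 3 promoters printed here read 5′ to 3′ on the gene's strand, with matches in capitals: 1 match for Stat2 (chr10:128270248-128270497, plus strand), 3 overlapping ones for Isg15 (chr4:156200819-156201068, minus strand) and 2 for Ifit3 (chr19:34583279-34583528, plus strand).
Stat2: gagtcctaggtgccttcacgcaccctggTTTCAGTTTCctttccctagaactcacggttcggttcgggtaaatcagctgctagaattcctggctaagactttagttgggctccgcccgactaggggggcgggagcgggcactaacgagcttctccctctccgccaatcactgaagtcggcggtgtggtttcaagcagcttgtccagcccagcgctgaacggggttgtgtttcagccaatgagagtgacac
Isg15: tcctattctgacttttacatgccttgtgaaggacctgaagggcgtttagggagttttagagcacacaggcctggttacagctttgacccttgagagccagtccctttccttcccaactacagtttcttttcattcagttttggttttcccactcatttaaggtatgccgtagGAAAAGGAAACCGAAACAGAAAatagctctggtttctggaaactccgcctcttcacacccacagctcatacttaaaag
Ifit3: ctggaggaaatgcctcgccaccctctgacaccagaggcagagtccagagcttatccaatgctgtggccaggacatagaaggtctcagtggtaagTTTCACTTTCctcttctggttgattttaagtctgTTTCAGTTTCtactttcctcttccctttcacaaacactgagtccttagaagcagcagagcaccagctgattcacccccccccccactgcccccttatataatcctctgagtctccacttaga
Of the 8 genes with a match, 7 were tested, without a call. All 7 had a negative difference, from -0.03 (B2m) to -0.35 (Isg15), as did 21 of the 23 tested genes of the whole list. Isg15, a ubiquitin-like modifier, had a mean of 22.8 normalised reads under DCS and 29.0 under vehicle (-0.35 ± 0.19), and Ifit3 150.1 and 169.1 (-0.15 ± 0.10). The cyclic AMP response element TGACGTCA, searched the same way, was in 4 of 28 early gene promoters (14.3%) and 478 of 27025 in all (1.77%); of these genes Btg2 and Dusp1 were lower (-0.18 each) and Maff and Ppp1r15a higher (0.13 and 0.10), none at an unadjusted p under 0.05. Early genes were likewise listed for their known response, so this higher share is no evidence on DCS either. A match is a description of the letters, not a site.

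Marker genes of other cell types were compared in the same way. The counts of this and all later lists stand beside those of all tested genes. Of these, 49% were higher under DCS and 3.2% had an unadjusted p under 0.05. In bulk tissue fewer cells of a type and less RNA per cell cannot be told apart. Brain endothelial genes were lower in 15 of 18 (median -0.05, -0.04 in WT and -0.06 in HT), with 3 at an unadjusted p under 0.05: Ly6a at 164, 199 and 253 normalised reads under DCS and 172, 238 and 352 under vehicle (-0.23 ± 0.08), Ly6c1 (-0.14 ± 0.05), both surface antigens of endothelium, and the transporter Slco1a4 (-0.13 ± 0.05). Ly6a and Ly6c1 were highest in WT vehicle replicate 3 (352 and 779), the library with the highest mean of the interferon list. Its mean over the endothelial list, 9.28, was the lowest under vehicle. The endothelial list's mean was below that of the genotype's vehicle group in 9 of 11 DCS libraries, and the median was -0.03 without HT DCS replicate 4. Pericyte and smooth muscle genes of the same vessels were mixed in sign, with 9 of 15 higher and 6 lower (median 0.01). They ran from -0.15 to 0.19 ± 0.09, the latter for Kcnj8, a potassium channel of pericytes. Their median was 0.05 in WT and 0.0011 in HT, and -0.0063 without HT vehicle replicate 4.

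Myelin genes were lower in 23 of 24 with a median of -0.06 and 0 at an unadjusted p under 0.05, among them Mbp, the myelin basic protein (-0.10 ± 0.05). The size differed between genotypes and between replicate numbers: the median was -0.0029 in WT and -0.13 in HT, -0.0064 in numbers 1 to 3 and -0.14 in 4 to 6, and -0.03 without HT DCS replicate 6, the library with the lowest mean of the list. Sox10, the transcription factor of the oligodendrocyte lineage in the precursor list, had 2167, 2493 and 2649 normalised reads under DCS and 2429, 2609 and 2814 under vehicle (-0.09 ± 0.03), with -0.09 in WT and -0.08 in HT, and the other precursor genes named were Lhfpl3 (0.05), Neu4 (-0.06) and Olig1 (-0.02). Astrocyte genes had a median of -0.0050 over 20 genes, with 1 at an unadjusted p under 0.05, Glul, the glutamine synthetase (-0.05 ± 0.02). Inhibitory and excitatory neuron markers had medians of 0.0031 and -0.0026; Neurod6, of cortical excitatory neurons, had 0.06 ± 0.03 and an unadjusted p of 0.027.

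Genes of particular brain regions stood low or high in single libraries. Hindbrain and monoamine genes were lower in 13 of 17 tested members of 22, with the lowest median of all 37 lists, -0.17. Their mean was 4.64 in HT DCS replicate 5 and 4.83 in HT DCS replicate 6, and 5.42 to 6.42 in the other libraries. The median was -0.01 in numbers 1 to 3 and -0.30 in 4 to 6, and it ran from -0.26 without HT vehicle replicate 6 to -0.08 without HT DCS replicate 6; Hoxb2 had -0.54 ± 0.37 and was listed at 0 in 1 DCS library. Cerebellar genes had a median of -0.03 that became 0.0028 without HT DCS replicate 5, whose mean of 10.90 stood below the 11.17 to 11.32 of all others. Choroid plexus genes ran in opposite directions in the genotypes, with a median of 0.17 in WT and -0.14 in HT and -0.0028 in the pool; WT DCS replicate 2 had the highest mean, 8.14. Meningeal fibroblast genes had 0.03 (14 of 17 higher; 0.0014 without WT DCS replicate 2), olfactory bulb genes 0.03 and striatal genes -0.02. The part of tissue from these regions in any gene's difference was not tested.

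**Figure D4:**
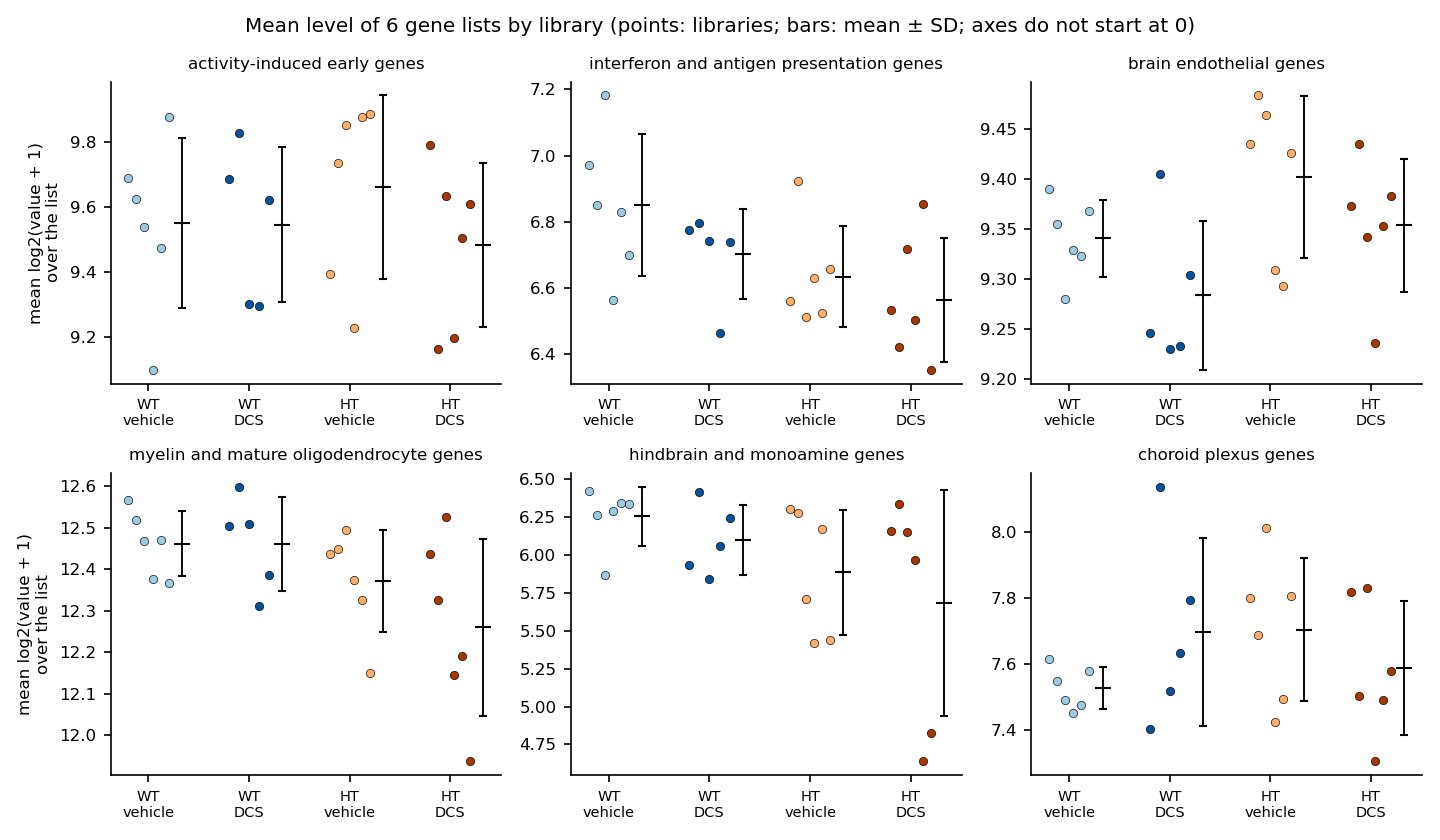
Mean log2(value + 1) of 6 gene lists in each library, by group, with bars for mean ± SD and axes that do not start at 0. DCS and vehicle libraries overlap in all 6; 2 HT DCS libraries stand at 4.64 and 4.83 for the hindbrain list.

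Among the lists of growth, hormone response and housekeeping, cell cycle genes were higher in 18 of 22, with the highest median of the 37 lists, 0.08 (0.12 in WT, 0.08 in HT, 0.03 in numbers 1 to 3, 0.13 in 4 to 6, 0.05 without HT vehicle replicate 4). Most are weakly expressed, and 1 had an unadjusted p under 0.05: Mcm3, a subunit of the replicative helicase, at 60.4, 78.1 and 144 normalised reads under DCS and 48.7, 62.0 and 121 under vehicle (0.33 ± 0.14). Immature neuron and axon growth genes were higher in 19 of 20 by a median of 0.02, with Tubb2b, a tubulin of young neurons, at 0.08 ± 0.05 and Gap43, of growth cones, at 0.07 ± 0.05; the median was 0.0034 in WT (12 of 20 higher) and 0.05 in HT (18 of 20), 0.0074 without HT DCS replicate 6 and 0.04 without WT DCS replicate 2. Glucocorticoid-induced genes were lower in 13 of 17 (median -0.06; -0.0064 in WT with 9 of 17 lower, -0.08 in HT with 12 of 17, 0.01 in numbers 1 to 3 and -0.10 in 4 to 6), with Tsc22d3, the leucine zipper gene GILZ, at -0.07 ± 0.03. Circadian clock genes were lower in 15 of 18 (median -0.05, -0.03 without HT vehicle replicate 3) with 0 at an unadjusted p under 0.05. Their median was -0.01 in WT with 9 of 18 lower and -0.03 in HT with 15 of 18. In numbers 1 to 3 it was -0.02 and in 4 to 6 -0.05.

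Of 44 cytosolic ribosomal protein genes, 5 had an unadjusted p under 0.05, where 3.2% of all tested genes did, and 0 were called. Lower were Rps14 (3021, 3639 and 3893 normalised reads under DCS, 3664, 3836 and 4212 under vehicle, -0.10 ± 0.03), Rps18 (-0.07 ± 0.02), Rpl27 (-0.13 ± 0.04) and Rpl24 (-0.08), and Rpl5 was higher (0.09 ± 0.04). The list as a whole had a median of -0.0083, 0.03 in numbers 1 to 3 and -0.06 in 4 to 6. Ribosomal protein genes have many processed copies with which reads can be exchanged. Nuclear genes of oxidative phosphorylation had a median of -0.02 over 50 genes, with Ndufb8, a subunit of complex I, at -0.07 ± 0.03. The 13 mitochondrially encoded mRNAs had a median of 0.0069. Among them mt-Co3 ran from 8071 to 72986 under DCS and from 9030 to 74497 under vehicle, without any level between 17007 and 32614. The arms were not alike in how libraries fell about this gap. Under DCS, only HT replicate 4 and WT replicates 1 and 5 lay above it. Under vehicle, only HT replicate 4 and WT replicates 1, 2 and 5 lay below it. The difference of mt-Co3 was -0.84, the lowest of the list, in which 0 genes had an unadjusted p under 0.05. Heat shock chaperones (-0.0066), the unfolded protein and integrated stress response (-0.0078) and cholesterol synthesis (0.0090) had medians near 0; in the last, Lss, the lanosterol synthase, had 0.10 ± 0.05 and an unadjusted p of 0.029.

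**Figure D5:**
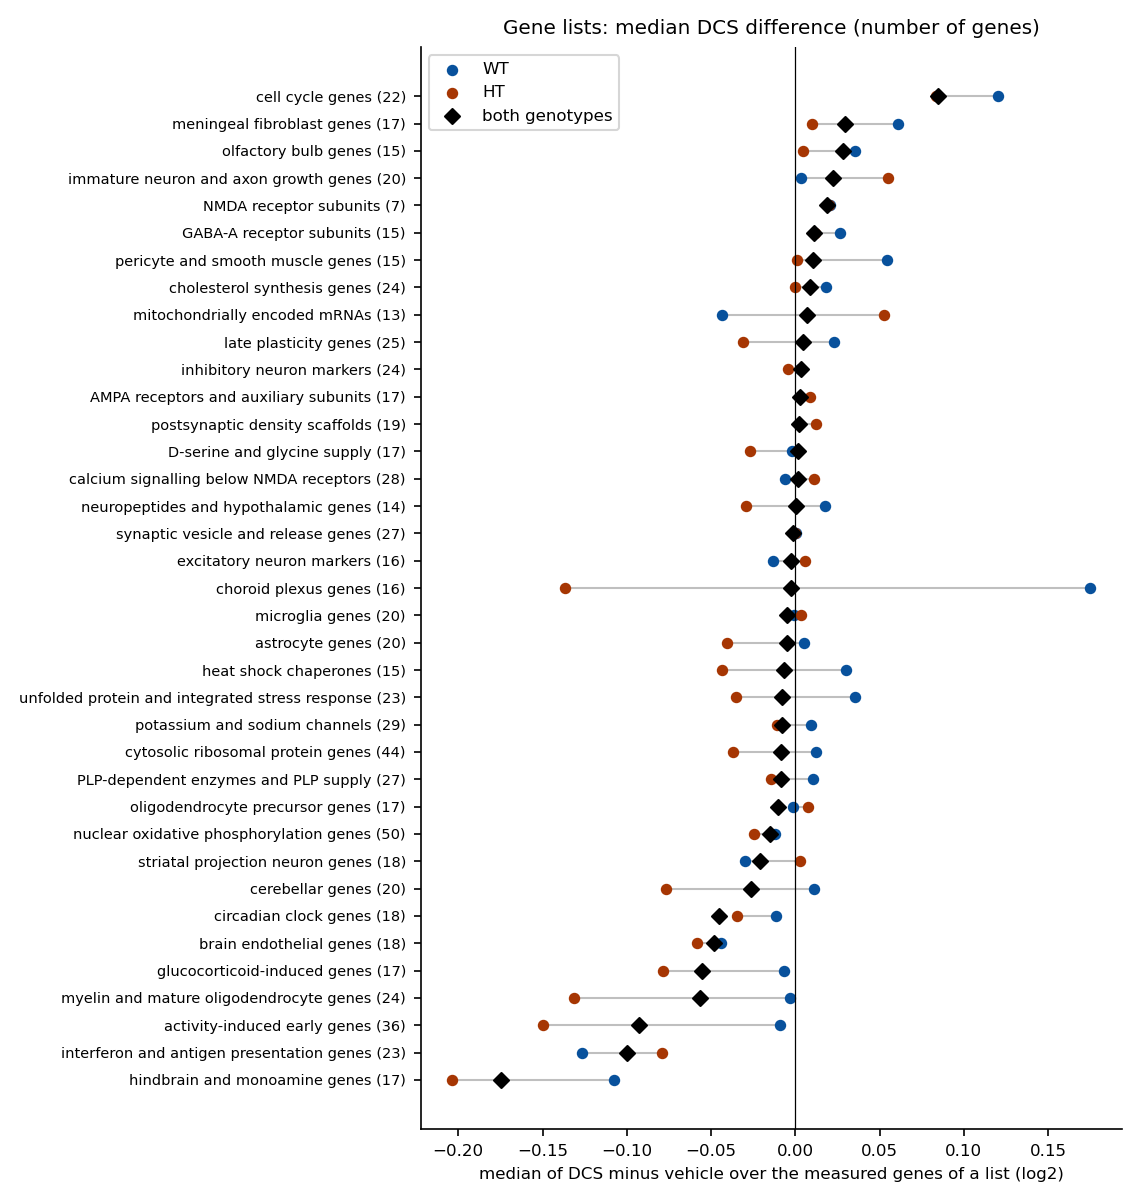
Median log2 difference of DCS from vehicle over the tested genes of 37 lists (rows, with the number of genes), in both genotypes pooled (black), in WT (blue) and in HT (red). Pooled medians run from -0.17 to 0.08, and 21 of 37 are negative; the WT and HT medians lie furthest apart for choroid plexus genes.

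In all, the 37 lists held 753 different tested genes. Of these, 27 had an unadjusted p under 0.05 (3.59%, beside 3.2% of all tested genes) and 0 were called. The largest log2 differences of the table lay outside them. Of the 15 largest, 6 belonged to processed pseudogenes, 5 to protein-coding genes, 2 to long intergenic RNAs and 2 to processed transcripts. Gdf1, a growth factor gene of the TGF-beta family, had the largest, -2.82 ± 1.42, with no call. It was listed at 0 in 8 of 23 libraries, most of them under DCS, and at 84.3 to 343.4 in the others. Those at 0 were HT DCS replicates 4, 5 and 6, WT DCS replicates 2, 3 and 5, and HT vehicle replicates 1 and 2. Gstp2, a glutathione transferase, had -1.77 ± 0.87, from 0.6 to 222.3 normalised reads, while its near-identical neighbour Gstp1 ran from 2086 to 2703.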

How the data were processed

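Per the labels' protocols, stranded libraries were made from the polyadenylated RNA of 23 brain samples. The file deposited by the authors is 1 table of 18848 genes by 23 libraries, whose values are a signal: read counts scaled between libraries, with decimals. GRCm38, DESeq2 1.26.0, Salmon 1.1.0 and R 3.6.2 are named in the submitters' processing notes, without role or order; the sources used here give neither the annotation nor any filter. Low values clustered at multiples of 1 step per library (0.879 to 1.28), but only 56.7% to 76.8% of those up to 5 steps lay within 0.15 of a multiple, so whole reads were not recovered and count tests were not used. The depth in reads is total over step, an estimate. Scaling hides differences in total RNA, and genes that share sequence can exchange reads.

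The main fit used limma 3.58.1 in R 4.3.3 on log2(value + 1), with genotype and treatment as terms, a mean trend, robust moderation and Benjamini-Hochberg adjustment at 0.05 over 17256 genes whose mean value reached 10. A log2 difference on this scale understates changes of low genes. Genotype contrasts and the interaction came from 1 coefficient per group. The procedure was tested on simulated data for the pooled contrast with 17256 genes: 61.2% of 67 genes shifted by 0.25, 82.1% of 67 shifted by 0.5 and 95.5% of 66 shifted by 1 were recovered, with 11 false calls in all. Each gene was drawn on its own, without differences by genotype or replicate number and without libraries that stand apart. The rates also depend on how many genes were shifted, so they need not hold for these libraries. Samples were grouped by the labels; 0 columns lacked a sample. WT DCS replicate 5 of the titles carries number 6 in its description, so both numberings were tried. The members and the 37 lists were chosen with earlier results of these data known, and no test was made over a list. Named genes are the 12 with the smallest p in each direction, leaving out predicted models and pseudogenes, all genes of the NMDA receptor and co-agonist lists, and up to 4 genes with the smallest p of each other list. Of 18848 identifiers, 16 had no symbol; coordinates come from GENCODE on GRCm38. Results of some named genes are not reported here.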

Additional observations from a re-analysis of the deposited data

Results flagged for a closer look

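Each of the 180 genes that the naming rule picked and each of the 37 list means was checked, on normalised reads for genes and log2 levels for lists, for a library standing apart from the rest of its group by Dixon's ratio, the gap to the nearest library over the group's range. Of 868 groups checked, 81 had such a library (9.33%), where chance gives about 1 in 20. HT vehicle replicate 6 accounted for 13 of these. It was low in Grin2b (14618 normalised reads against 18075 to 19880 in the other HT vehicle libraries), Grin2a (4614 against 5806 to 6300), Camkk1 (2181), the sodium channel subunit gene Scn4b (3758) and the myelin gene Tspan2 (8788). It was high in Psat1 (2921), Gap43 (9071) and the complex II gene Sdhc (2749). In mean log2 level it was low for AMPA receptor genes (11.98), postsynaptic density scaffolds (12.76), synaptic vesicle genes (13.59) and potassium and sodium channels (11.88), and high for ribosomal protein genes (11.69 against 11.55 to 11.60).

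Other list means that stood apart were neuropeptide genes in WT vehicle replicate 6 (7.35, low), astrocyte genes in HT DCS replicate 4 (12.30, low), interferon genes in HT vehicle replicate 2 (6.92, high) and WT DCS replicate 4 (6.46, low), meningeal and hindbrain genes in WT vehicle replicate 3 (8.31 and 5.87, low), cerebellar genes in HT DCS replicate 5 (10.90, low) and clock genes in WT vehicle replicate 4 (10.63, low).

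The other values are normalised reads of single genes, first those of the DCS libraries. WT DCS replicate 1 was high in Psph (456), Gabra2 (1677), Cplx1 (23053), Col1a1 (1524 against 725 to 827 in the other WT DCS libraries), Pcp2 (1889), Cox4i1 (13475) and Chac1 (225). WT DCS replicate 2 was low in Grin2a (5519) and Slc1a4 (1707) and high in the microglia genes Gpr34 (184) and Ctss (731), the pericyte gene Abcc9 (382) and Hoxb2 (20.7). WT DCS replicate 3 was high in Grin3b (44.8) and low in Gcsh (1121). WT DCS replicate 4 was high in Cenpf, a cell cycle gene (225 against 46.9 to 63.2), Tubb2b (9257) and Igfbpl1 (338). WT DCS replicate 5 was high in Suco (1460.3), Tekt2 (98.3) and Aldh1a2 (239.7). HT DCS replicate 1 was high in Atp8b5 (35.5), and HT DCS replicate 3 in Irak2 (379) and Mthfd2 (217). HT DCS replicate 4 was low in Phgdh (1389) and high in Gadl1 (30.7) and mt-Co3 (58222). HT DCS replicate 5 was high in Fgfr3 (4054) and Dnaja1 (9965) and low in Cry1 (588) and Pcp2, a Purkinje cell gene (1108 against 1507 to 1697). HT DCS replicate 6 was high in Lrrc55 (1456), Nol4l (2507), Igfbpl1 (416) and Col1a1 (1069) and low in Sipa1l1 (7266).

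Among vehicle libraries, WT vehicle replicate 1 was high in the striatal gene Drd2 (854) and in Penk (5239). WT vehicle replicate 2 was low in Sostdc1 (35.0) and high in Mcm3 (79.6). WT vehicle replicate 3 was high in Pola1 (205), Slc1a5 (123), Dlx5 (259) and Ly6a (352). WT vehicle replicate 4 was high in Actr3 (4905) and Aurkb (39.4) and low in Gldc (551). WT vehicle replicate 5 was high in Slc1a4 (1995) and Bcat2 (394) and low in Neurod6 (1496), and WT vehicle replicate 6 was high in Hoxb2 (32.1) and Neurod1 (3405). HT vehicle replicate 1 was high in Mcm3 (121), and HT vehicle replicate 2 in Lama1, a laminin gene (467 against 183 to 221). HT vehicle replicate 3 was high in Zfp438 (136), Odc1 (1818) and the choroid plexus gene Prlr (307). HT vehicle replicate 4 was high in Gpr6 (294) and low in Cenpf (32.1), and HT vehicle replicate 5 was low in Ly6a (172).

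Of the same 180 genes and 37 list means, only Dao ran in opposite directions in all DCS libraries of the genotypes. All 5 WT DCS libraries lay above the WT vehicle mean and all 6 HT DCS libraries below the HT vehicle mean. Vehicle libraries themselves held 94.2 to 137 normalised reads in WT and 125 to 156 in HT. How often spread between libraries alone gives such a pattern was not tested. The mean difference of DCS from vehicle was 17.8 normalised reads in WT and -31.0 in HT, so that of HT minus WT was -48.8; the interaction had a limma unadjusted p of 0.0027 and an adjusted p of 0.984.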

How the results depend on the processing

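The pooled contrast was refitted under 40 alternatives, 23 of them leaving out 1 library; the others changed the pseudocount, the filter, the trend, the scaling (quantile), the weights, the covariates or the libraries. Leaving out the 4 libraries far out on the residual components was chosen after seeing the data. The number of genes called higher was 0 in all, and the number called lower was 0 in all but 1: leaving out 1 library gave 0 to 1, the call being Irak2 without WT vehicle replicate 2. For the HT contrast, leaving out 1 library gave 0 to 1 call, Ehd1 without HT DCS replicate 4 or HT vehicle replicate 1. The WT contrast and the interaction had 0 calls in all alternatives run for them. Genes at an unadjusted p under 0.05 numbered 498 to 690 when 1 library was left out and 419 to 764 otherwise, except 1292 with replicate numbers 4 to 6 alone. With the replicate number as a block, 0 genes were called and 724 had an unadjusted p under 0.05 (697 with the numbers of the descriptions). Of 11 pairs that share a number in a genotype, 3 had deviations correlated above 0.1 (r from -0.07 to 0.30). In 4 of the 11 a library matched its own number best, and in 5 with the numbers of the descriptions. So few pairs cannot decide whether the numbers are pairs, and the main fit did not take them as such. The 24 genes with the smallest p changed sign in 0 of 955 refitted values, all named genes in 105 of 7185, and the list medians in 195 of 1480. The 24 were picked by their p in these same libraries, most of which each refit reuses. Their steady sign therefore follows largely from the choice and is no independent evidence. The step of 1 read and the low level of many genes limit precision: under 50 normalised reads, 11.3% of genes had an interval within 1.25-fold.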

Other observations

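A few genes with large differences and no call were spread over libraries in ways that the group means do not show; they were chosen after their values were seen. Gdf1, at 0 in 8 libraries, shares its locus with Cers1, a ceramide synthase gene, which ran from 3520 to 4043 normalised reads and differed by 0.03 ± 0.02. Gstp1 differed by 0.07 ± 0.03 while Gstp2 differed by -1.77 ± 0.87. The predicted gene Gm14440 was listed at 0 in all libraries but HT vehicle replicate 4 (95.8) and WT vehicle replicate 3 (173.8). Tgtp2, an interferon-induced GTPase gene outside the lists, had 114.7 in WT vehicle replicate 3, the library with the highest mean of the interferon list, 39 in WT vehicle replicate 1 and 1.7 to 14.9 in the others; its pooled difference was -1.07 ± 0.43 with an unadjusted p of 0.020. Lockd, a long non-coding RNA, had 9 to 30.9 in the 6 HT DCS libraries and 2.1 to 14.8 in the 6 HT vehicle libraries. Of these HT DCS libraries only replicate 3, at 9, lay within the HT vehicle range. In WT the arms overlapped, at 2.1 to 25.7 under DCS and 1.2 to 23.8 under vehicle. The pooled difference of Lockd was 1.21 ± 0.46 (limma unadjusted p = 0.015, no call).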
